A study of Homo sapiens with 12 samples.

Results

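The genes described here are 10 human enzymes that make, recycle, methylate or consume nicotinamide adenine dinucleotide (NAD), the cosubstrate of sirtuins: NAMPT, NAPRT, NMNAT1, NMNAT2, NMNAT3, NADSYN1, QPRT, NNMT, PARP1 and NADK. They were listed by symbol for their place in NAD metabolism, with earlier results of these data known but by no rule on measured values. Each matched 1 of the 60649 Ensembl gene IDs in the deposited table of normalised counts. Of the 10, 9 were expressed highly enough to be tested among 17576 genes, and QPRT was not. RNA sequencing was done in 4 groups of 3 libraries, all from MDA-MB-231, a widely used triple-negative line of human breast cancer. SIRT1 KD cells carried a short hairpin RNA (shRNA) against the deacetylase SIRT1, IGF2BP2 KD cells carried a hairpin against the RNA-binding protein IGF2BP2, double KD cells carried both, and control cells carried a sham hairpin. Per the labels, in every group the hairpins were delivered by lentivirus with Polybrene at 8 µg/mL and the cells were then kept in puromycin at 2.0 µg/mL. Neither the hairpin sequences nor the number of infections behind the 3 runs of a group could be taken from the sources used here. Each p-value therefore reflects run-to-run spread, which may be technical.

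Cells make NAD along 3 routes. In the salvage route NAMPT joins nicotinamide to a phosphoribosyl group to give nicotinamide mononucleotide, and an NMNAT enzyme then adds the adenylyl group. NAPRT starts the route from nicotinic acid and QPRT the route from tryptophan, and NADSYN1 amidates the acid form that both of these yield. SIRT1 and PARP1 split NAD and release nicotinamide. NNMT methylates nicotinamide, with S-adenosylmethionine as the methyl donor, which takes it out of salvage, and NADK phosphorylates NAD to NADP. In mouse cells SIRT1 has been described at the Nampt promoter together with the circadian factors CLOCK and BMAL1, which bind E-boxes.

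SIRT1 itself had 547, 496 and 539 normalised counts in SIRT1 KD, 763, 691 and 730 in IGF2BP2 KD and 396, 380 and 436 in double KD libraries, against 799, 841 and 863 in control. Its mean was 63.2% of control in SIRT1 KD and 48.4% in double KD, so the knockdown was partial. IGF2BP2 had 709, 841 and 736 normalised counts in IGF2BP2 KD and 992, 715 and 884 in double KD libraries, against 3045, 3055 and 3127 in control. In SIRT1 KD libraries IGF2BP2 had 3791, 3759 and 3721 normalised counts, all above control. The double KD libraries held less SIRT1 RNA than the SIRT1 KD libraries, by 0.38 on the log2 scale (adjusted p = 0.0016, limma), so those groups differ in both targets. Libraries held 15243152 to 22509142 reads. Double KD replicate 2 was the shallowest and stood apart. Its log2 values differed from those of its partner libraries with an SD of 0.478, against 0.273 to 0.379 in the other 11, and 1.18% of its reads were mitochondrial, against 1.99% to 2.57%. Results that involve double KD are therefore also given without it where that matters. Of the markers of this line, VIM, CD44, CAV1, MSN, AXL and KRT18 had 6198 to 59220 normalised counts in every library. The estrogen receptor gene ESR1 and the epithelial cadherin gene CDH1, which are absent or low in this line, had at most 7.66 and 24.1, while GATA3, also listed as low in this line, had 121 to 221. The epithelial marker EPCAM had 134 to 242. The immune cell markers PTPRC and CD3E had at most 5.75. Of the fibroblast markers, DCN had at most 4.79, while COL1A1 had 218 to 994 and PDGFRB 113 to 453.

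The sequences below are those of NAMPT, NADSYN1 and NMNAT2, which were higher in SIRT1 KD cells, and of PARP1, which was lower. Each is the promoter window in RefSeq's table for GRCh38.p14, from 250 bases before to 50 after the transcript start, read 5′ to 3′ on the gene's strand. Capitals mark GC boxes (GGGCGG, or CCGCCC on the other strand), the letters that SP-family factors bind.
NAMPT, chr7:106284934-106285233, minus strand: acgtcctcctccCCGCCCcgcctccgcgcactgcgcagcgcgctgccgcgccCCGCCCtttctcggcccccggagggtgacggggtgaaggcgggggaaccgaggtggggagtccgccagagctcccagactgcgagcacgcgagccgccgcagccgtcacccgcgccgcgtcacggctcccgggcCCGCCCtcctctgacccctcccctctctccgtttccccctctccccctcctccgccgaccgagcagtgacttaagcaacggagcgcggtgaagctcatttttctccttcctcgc
NADSYN1, chr11:71452953-71453252, plus strand: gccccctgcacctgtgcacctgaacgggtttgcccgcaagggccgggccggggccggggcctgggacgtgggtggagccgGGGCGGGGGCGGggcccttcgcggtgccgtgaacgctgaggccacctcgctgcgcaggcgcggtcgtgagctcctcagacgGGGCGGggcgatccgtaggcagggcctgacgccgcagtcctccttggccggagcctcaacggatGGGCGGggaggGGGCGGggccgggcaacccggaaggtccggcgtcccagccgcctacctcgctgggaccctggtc
NMNAT2, chr1:183418331-183418630, minus strand: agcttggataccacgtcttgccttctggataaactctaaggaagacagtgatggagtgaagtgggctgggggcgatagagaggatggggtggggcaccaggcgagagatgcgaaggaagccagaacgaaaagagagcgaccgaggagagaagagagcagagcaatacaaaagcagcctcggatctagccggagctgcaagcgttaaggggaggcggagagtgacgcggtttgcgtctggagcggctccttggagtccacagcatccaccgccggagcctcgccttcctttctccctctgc
PARP1, chr1:226408044-226408343, minus strand: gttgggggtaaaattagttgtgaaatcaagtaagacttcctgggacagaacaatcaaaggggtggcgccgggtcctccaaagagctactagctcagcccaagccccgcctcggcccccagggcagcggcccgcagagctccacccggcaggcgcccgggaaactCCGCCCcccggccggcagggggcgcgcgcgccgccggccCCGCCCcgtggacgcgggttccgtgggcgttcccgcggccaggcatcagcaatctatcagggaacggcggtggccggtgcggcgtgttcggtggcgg
The NAMPT window holds 3 GC boxes and is 73% G and C. The NADSYN1 window holds 5 GC boxes, the PARP1 window 2 and the NMNAT2 window none. None of these windows holds the E-box letters CACGTG. Of all 35116 windows in the table, 45.0% hold a GC box and 7.26% hold CACGTG on either strand. The table holds 8 of the 10 enzymes, without NAPRT and without NNMT, which was also lower in SIRT1 KD cells. A further NMNAT2 window in it, not shown, holds no GC box and no CACGTG. A match here is a description of the letters and not a shown binding site.

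**Figure D1:**
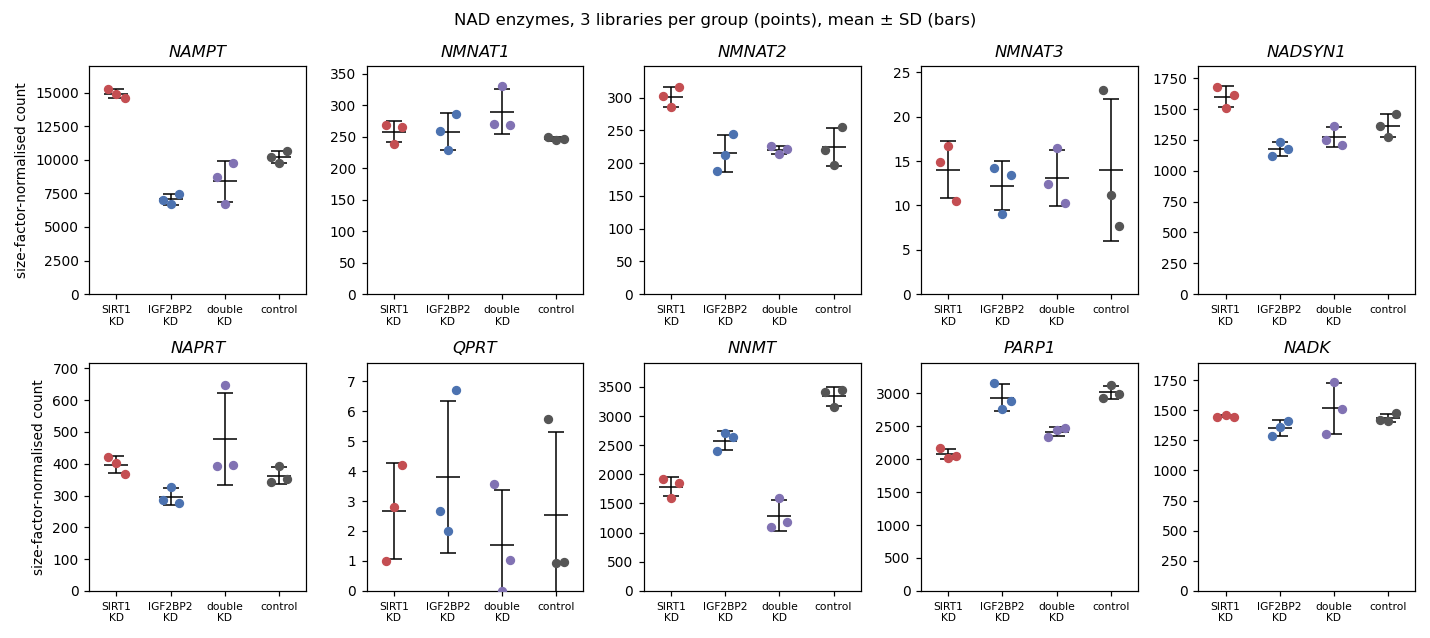
Size-factor-normalised counts (y axis, from 0, with a scale for each gene) of the 10 NAD enzymes in the 12 libraries, by group (x axis). Points are libraries, and bars give the mean and SD of 3. NAMPT lies between 14599 and 15292 in SIRT1 KD, above every other library, and NNMT is below control in all 9 knockdown libraries.

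In SIRT1 KD cells the salvage enzyme NAMPT was 1.47 times as abundant as in control, and NNMT, which competes for its substrate, and PARP1, which consumes NAD, were less abundant. NMNAT2 and NADSYN1 were also higher. Of the 9 tested enzymes, 3 rose and 2 fell, where 12.9% of all tested genes rose and 15.7% fell (28.6% in either direction). The median log2 fold change was 0.12 over the 9 enzymes and -0.0018 over all tested genes.

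NAMPT (ENSG00000105835.13, chr7:106248285-106286326, minus strand, 11 exons in the transcript used for its length) had 15292, 14878 and 14599 normalised counts in SIRT1 KD libraries, against 10183, 9750 and 10622 in control. Every SIRT1 KD library lay above every control library. The means were 14923 ± 349 in SIRT1 KD and 10185 ± 436 in control (SD, n = 3 each), a ratio of 1.47. NAMPT changed by 0.55 on the log2 scale (95% interval 0.35 to 0.75, adjusted p = 0.00030, limma), and the call held under all 20 other settings. In bulk RNA, more copies per cell and more cells that hold them cannot be told apart. The processed pseudogene NAMPTP1, which may share reads with NAMPT, had between 1.75% and 2.94% of the NAMPT count in every library.

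NNMT (ENSG00000166741.8, chr11:114257787-114313285, plus strand, 5 exons) had 1919, 1601 and 1854 normalised counts in SIRT1 KD libraries, against 3417, 3158 and 3456 in control. The groups did not overlap, and the mean fell to 53.6% of control. Its log2 fold change was -0.90 (95% interval -1.14 to -0.67, adjusted p = 9.7e-06, limma). It was the largest change of any of the 9 tested enzymes in this comparison.

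PARP1 (ENSG00000143799.14, chr1:226360691-226408079, minus strand, 23 exons), which builds poly(ADP-ribose) from NAD at DNA breaks, had 2168, 2012 and 2052 normalised counts in SIRT1 KD libraries, against 2936, 3125 and 2991 in control. All SIRT1 KD values lay below all control values. The mean was 68.8% of control, a log2 difference of -0.54 (95% interval -0.67 to -0.40, adjusted p = 4.7e-06, limma).

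The late steps of NAD synthesis moved less. NMNAT2, the adenylyltransferase of the Golgi and cytosol that is best known from axons, had 302, 285 and 316 normalised counts in SIRT1 KD libraries, against 220, 198 and 256 in control. Its log2 fold change was 0.43 (95% interval 0.19 to 0.66, adjusted p = 0.0077, limma), and 0.34 with an adjusted p of 0.055 when control replicate 2 was left out. NADSYN1 had 1677, 1507 and 1612 normalised counts in SIRT1 KD libraries, against 1362, 1274 and 1457 in control. Those groups also did not overlap, but the lowest SIRT1 KD and highest control values were close. Its log2 fold change was 0.23 (95% interval 0.07 to 0.39, adjusted p = 0.026, limma). The NADSYN1 call was lost without a filter on low counts and when any 1 of 4 libraries (control replicates 1 and 2, SIRT1 KD replicates 1 and 3) was left out, with adjusted p between 0.071 and 0.14.

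The other 4 tested enzymes did not pass the test after SIRT1 knockdown, and their SIRT1 KD and control libraries overlapped. NMNAT1, the nuclear adenylyltransferase, had a log2 fold change of 0.06 (95% interval -0.16 to 0.29). NADK had 0.01 (95% interval -0.16 to 0.19) and NAPRT 0.13 (95% interval -0.18 to 0.44). For NMNAT3, the mitochondrial adenylyltransferase, the interval was -0.63 to 0.86, so changes of nearly that size could not be detected at its 7.72 to 23.0 normalised counts. The transcript COPB2-DT, annotated on the opposite strand over NMNAT3, had 25.0 to 41.1 normalised counts, and reads of the pair cannot be assigned without a stated strand setting. QPRT had 0 to 6.71 normalised counts, from 8 reads over the 3 SIRT1 KD, 12 over the IGF2BP2 KD, 5 over the double KD and 8 over the control libraries, and no comparison of it was made.

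**Figure D2:**
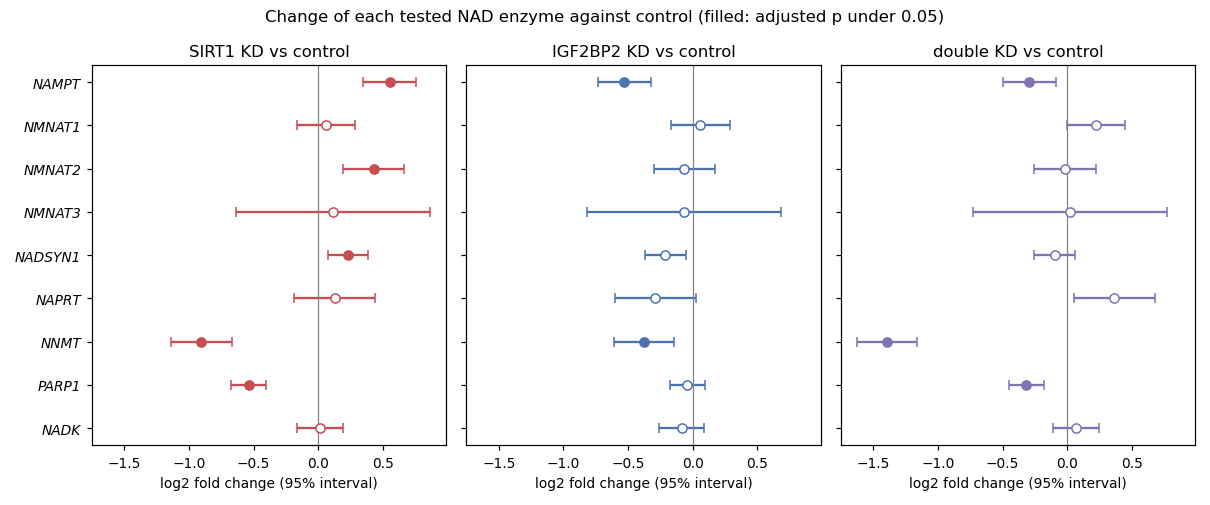
Log2 fold change (x axis) with its 95% interval for the 9 tested enzymes (rows) in SIRT1 KD, IGF2BP2 KD and double KD cells, each against the same 3 control libraries. Filled points have an adjusted p under 0.05. NNMT is lower in all 3 panels, while NAMPT is at 0.55 in SIRT1 KD, -0.53 in IGF2BP2 KD and -0.29 in double KD.

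In IGF2BP2 KD cells NAMPT and NNMT were both lower than in control. None of the 9 tested enzymes rose and 2 fell, where 6.86% of all tested genes rose and 9.39% fell (16.3% in either direction). NAMPT had 7030, 6682 and 7467 normalised counts in IGF2BP2 KD libraries, all below the lowest control value of 9750. The mean of 7060 ± 394 in IGF2BP2 KD cells was 69.3% of the 10185 ± 436 in control (SD, n = 3 each). The log2 fold change was -0.53 (95% interval -0.73 to -0.33, adjusted p = 0.00092, limma), a call kept under all 20 other settings.

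NNMT had 2394, 2704 and 2638 normalised counts in IGF2BP2 KD libraries, against 3417, 3158 and 3456 in control. These ranges did not overlap, and the mean was 77.1% of control. The log2 fold change was -0.38 (95% interval -0.61 to -0.14, adjusted p = 0.028, limma). That call was lost when any 1 of 5 libraries was left out (every IGF2BP2 KD replicate, and control replicates 1 and 3), with adjusted p between 0.051 and 0.12 and log2 values between -0.41 and -0.32.

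NAPRT and NADSYN1 did not pass the test in IGF2BP2 KD, though their ranges lay just below those of control. How many of all tested genes do so was not counted. NAPRT, the first enzyme of the nicotinic acid route, had 285, 327 and 278 normalised counts in IGF2BP2 KD libraries, against 343, 394 and 351 in control (log2 fold change -0.29, adjusted p = 0.21, limma). NADSYN1 had 1120, 1237 and 1174 in IGF2BP2 KD libraries, against 1362, 1274 and 1457 in control (log2 fold change -0.21, adjusted p = 0.060, limma). Without double KD replicate 2, which enters the shared estimate of the spread, the adjusted p was 0.0057 for NAPRT and 0.0053 for NADSYN1. PARP1 had 3153, 2756 and 2886 normalised counts in IGF2BP2 KD libraries, overlapping control, with a log2 fold change of -0.04 (95% interval -0.18 to 0.09).

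In double KD cells NNMT reached its lowest level of the 4 groups, and PARP1 and NAMPT were below control. None of the 9 tested enzymes rose and 3 fell against control, where 16.7% of all tested genes rose and 17.5% fell (34.2% in either direction). NNMT had 1088, 1591 and 1190 normalised counts in double KD libraries, against 3417, 3158 and 3456 in control. The mean was 38.6% of control, a log2 difference of -1.39 (95% interval -1.63 to -1.16, adjusted p = 4.8e-08, limma). The highest of the double KD values was in replicate 2, and without that library the log2 fold change was -1.55.

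PARP1 had 2344, 2446 and 2471 normalised counts in double KD libraries, against 2936, 3125 and 2991 in control. The mean was 80.2% of control (log2 fold change -0.32, 95% interval -0.45 to -0.18, adjusted p = 0.00084, limma). NAMPT had 8739, 6744 and 9742 normalised counts in double KD libraries, against 10183, 9750 and 10622 in control. All double KD values lay below all control values, the highest by a small margin, and replicate 2 was the lowest. The log2 fold change was -0.29 (95% interval -0.50 to -0.09, adjusted p = 0.025, limma). Without double KD replicate 2 it was -0.14 (adjusted p = 0.059), and the call was also lost without either control replicate 1 or 3, without a filter on low counts and when these 2 groups were fitted alone.

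Double KD replicate 2 had the highest value of its group for NAPRT, NMNAT1 and NADK. NAPRT had 394, 646 and 397 normalised counts in double KD libraries, against 343, 394 and 351 in control, with a log2 fold change of 0.36 (adjusted p = 0.068, limma) that was 0.13 without that library. NMNAT1 had 271, 331 and 269 in double KD libraries, against 250, 245 and 246 in control, a difference in the same direction in every library that did not pass the test (log2 fold change 0.23, adjusted p = 0.12, limma, and 0.13 without replicate 2). NADK had 1302, 1733 and 1508 in double KD libraries, against 1419, 1409 and 1475 in control, and the groups overlapped. Its log2 fold change was 0.07, and -0.03 without replicate 2 (adjusted p 0.57 and 0.72, limma).

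Double KD was then compared with each single knockdown. Since SIRT1 RNA differed between double KD and SIRT1 KD libraries, as given above, that comparison does not separate the added IGF2BP2 hairpin from the lower SIRT1 level. Against SIRT1 KD, 1 of the 9 tested enzymes rose and 4 fell, where 11.9% of all tested genes rose and 10.7% fell (22.6% in either direction). NAMPT fell by 0.84 on the log2 scale (95% interval -1.05 to -0.64, adjusted p = 7e-06, limma), with 8408 ± 1526 normalised counts in double KD and 14923 ± 349 in SIRT1 KD (SD, n = 3 each). NNMT fell by 0.49 (adjusted p = 0.0041), NMNAT2 by 0.45 (adjusted p = 0.0080) and NADSYN1 by 0.33 (adjusted p = 0.0035, limma for each). The NNMT ranges nearly touched, with at most 1591 normalised counts in double KD (replicate 2) and at least 1601 in SIRT1 KD libraries. Without double KD replicate 2 the log2 fold change was -0.69 for NAMPT and -0.65 for NNMT. NMNAT2 had 226, 214 and 222 normalised counts in double KD and 220, 198 and 256 in control libraries, and NADSYN1 had 1247, 1366 and 1210 in double KD and 1362, 1274 and 1457 in control libraries, so both overlapped control. PARP1 was higher in double KD than in SIRT1 KD libraries by 0.22 on the log2 scale (adjusted p = 0.019, limma). That call was lost without SIRT1 KD replicate 2 or 3, or when the 2 groups were fitted alone (adjusted p 0.071 to 0.081).

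Against IGF2BP2 KD, 1 enzyme rose and 2 fell in double KD, where 16.4% of all tested genes rose and 15.2% fell (31.6% in either direction). NNMT fell by 1.02 on the log2 scale (95% interval -1.25 to -0.78, adjusted p = 3e-06) and PARP1 by 0.27 (adjusted p = 0.0032, limma for both). NAPRT rose by 0.65 (95% interval 0.34 to 0.97, adjusted p = 0.0026, limma). It had 394, 646 and 397 normalised counts in double KD libraries, against 285, 327 and 278 in IGF2BP2 KD. Without double KD replicate 2 the NAPRT log2 fold change was 0.42 (adjusted p = 0.00027), a value more than 1.5 times smaller. NAMPT had a log2 fold change of 0.24 (adjusted p = 0.071, limma) and the groups overlapped at double KD replicate 2. Without that library the value was 0.39 and the adjusted p was 1.2e-06.

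Whether the 2 knockdowns added up on the log2 scale was tested as an interaction, the change of double KD from SIRT1 KD minus the change of IGF2BP2 KD from control. None of the 9 enzymes passed by limma, by edgeR or by DESeq2. Of all tested genes, 2.86% passed by limma (1.7% above and 1.16% below 0). The 4 enzymes with the smallest adjusted p were NMNAT2 at -0.38, PARP1 at 0.26, NAMPT at -0.31 and NAPRT at 0.53. Their adjusted p lay between 0.13 and 0.23 (limma). For NNMT the interaction was -0.11, with a 95% interval of -0.44 to 0.22. Without double KD replicate 2 the interaction was -0.16 for NAMPT, 0.29 for NAPRT and -0.27 for NNMT (adjusted p = 0.051 for NNMT), and PARP1 passed at 0.26 (adjusted p = 0.039, limma). Departures from additivity within these intervals could not be detected with 3 libraries per group. SIRT1 RNA also differed between the groups that carried the SIRT1 hairpin, as given above. The interaction values of the enzymes, that of PARP1 included, therefore do not separate non-additivity from that difference in knockdown depth.

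**Figure D3:**
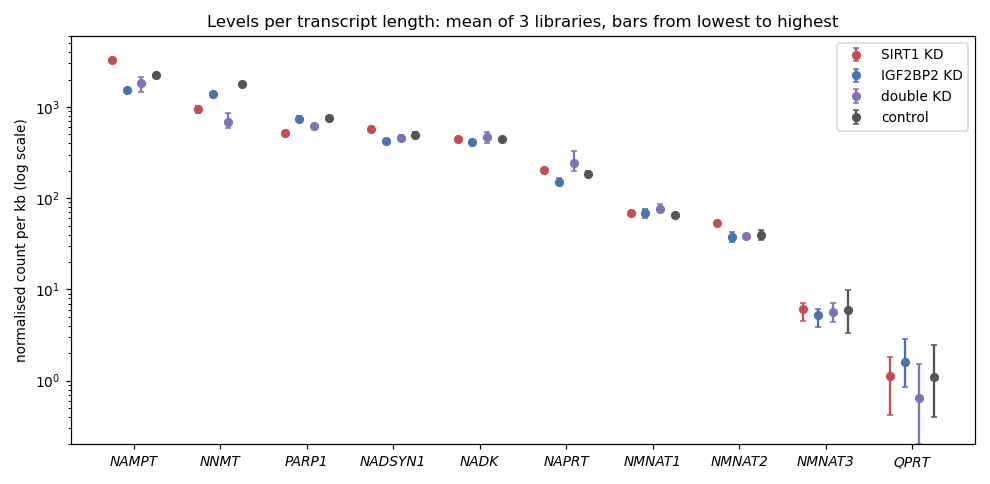
Normalised count per kilobase of the principal transcript (y axis, log scale) of the 10 enzymes, ordered by their level in control (x axis). Points are means of 3 libraries and bars run from the lowest to the highest library. The bar of QPRT in double KD reaches 0 and is drawn to the axis. NAMPT stands first in every group, and NMNAT3 and QPRT last.

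Levels were compared between genes per kilobase of each gene's principal transcript. NAMPT was the most abundant enzyme in every group, with 3257 normalised counts per kilobase in SIRT1 KD, 1541 in IGF2BP2 KD, 1835 in double KD and 2223 in control libraries on average. NNMT came next, with 959, 1381, 691 and 1791 in the same groups. In control the order then ran PARP1 at 762, NADSYN1 at 492, NADK at 443, NAPRT at 185, NMNAT1 at 65.3, NMNAT2 at 39.7, NMNAT3 at 6.01 and QPRT at 1.09 normalised counts per kilobase, with no overlap between the ranges of neighbours. NADSYN1 and PARP1 changed places in SIRT1 KD, at 577 and 525, with overlapping ranges. NADSYN1 and NADK overlapped in IGF2BP2 KD. In double KD, NNMT overlapped PARP1, and NADK overlapped NADSYN1. The order depends on the length used. With the union of all annotated exons NNMT stood above NAMPT in IGF2BP2 KD and control libraries, and NADSYN1 stood in place 6 in every group.

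NAMPT and NNMT compete for nicotinamide, and their ratio within a library does not depend on how the library was scaled. The size of the ratio does depend on the transcript lengths used, here those of the principal transcripts. With the union of exons NNMT stood above NAMPT in IGF2BP2 KD and control libraries, as given above. Per kilobase there were 3.25, 3.79 and 3.21 NAMPT for each NNMT in SIRT1 KD libraries, 1.20, 1.01 and 1.15 in IGF2BP2 KD and 3.27, 1.73 and 3.34 in double KD, against 1.21, 1.26 and 1.25 in control. SIRT1 KD and double KD libraries all lay above control, and IGF2BP2 KD libraries all lay just below it. The lowest double KD value was that of replicate 2. These ratios are of RNA and are given as a description, with no test.

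**Figure D4:**
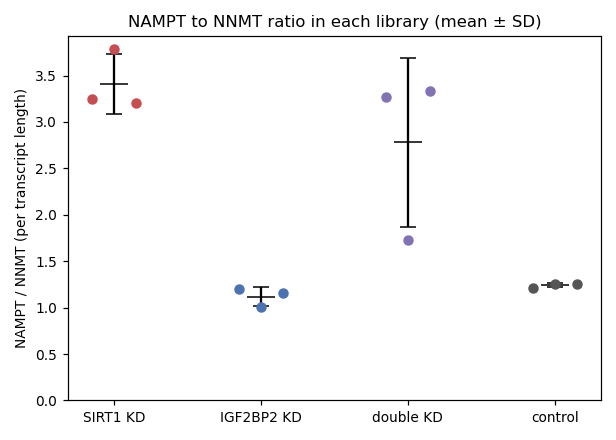
Ratio of NAMPT to NNMT normalised counts per kilobase of principal transcript (y axis, from 0) in each library, by group (x axis), with the mean and SD of 3. SIRT1 KD libraries lie at 3.21 to 3.79 and control libraries at 1.21 to 1.26, while the double KD group is split, with replicate 2 at 1.73.

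The genes most alike in pattern were sought for NNMT, NAMPT and NAPRT, the 3 enzymes whose group means differed most. The measure was the root-mean-square difference of centred log2 values over the 12 libraries, among 13206 protein-coding genes. For NAMPT these were DOCK9 (0.07), UBE2E2 (0.08) and BTG1 (0.09), against a median of 0.47 over all genes compared. DOCK9 averaged 6103 normalised counts in SIRT1 KD, 2997 in IGF2BP2 KD, 3388 in double KD and 4075 in control. For NNMT they included FBLN7 (0.13) and ARNT2 (0.15), with a median of 0.58. FBLN7 averaged 179 in SIRT1 KD, 255 in IGF2BP2 KD, 119 in double KD and 292 in control. For NAPRT they were SCRIB (0.07), TBL3 (0.08) and DUS1L (0.08), with a median of 0.36.

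A further 59 genes around NAD were examined in 7 lists, and 49 of them were tested. In SIRT1 KD 9 rose and 10 fell, in IGF2BP2 KD 2 rose and 6 fell, and in double KD 8 rose and 12 fell, each against control. Over all tested genes 28.6% changed in SIRT1 KD, 16.3% in IGF2BP2 KD and 34.2% in double KD. The genes that fell in SIRT1 KD and double KD include SIRT1, the target of the hairpin. The median log2 fold changes of the 49 were 0.019 in SIRT1 KD, -0.018 in IGF2BP2 KD and 0.020 in double KD, against -0.0018, -0.0037 and 0.0057 over all tested genes.

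NNMT needs S-adenosylmethionine, which MAT2A makes with its regulatory partner MAT2B, and leaves S-adenosylhomocysteine, which AHCY splits. AOX1 oxidises methylated nicotinamide. All 6 genes of this list were tested, and in SIRT1 KD 3 rose and 3 fell, where 28.6% of all tested genes changed. MAT2B had 646, 565 and 684 normalised counts in SIRT1 KD libraries, against 1753, 1713 and 1813 in control. The groups were far apart, with a log2 fold change of -1.48 (adjusted p = 1.2e-07, limma). AOX1 had 1066, 1112 and 1049 in SIRT1 KD libraries, against 515, 600 and 588 in control, and rose by 0.92 (adjusted p = 1.5e-06, limma). MAT2A fell by 0.44, to 2549 ± 7.23 in SIRT1 KD libraries, against 3460 ± 70.3 in control (SD, n = 3 each), and AHCY rose by 0.37 (adjusted p 1.2e-05 and 0.00039, limma).

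In IGF2BP2 KD AOX1 fell by 0.37 on the log2 scale (adjusted p = 0.015, limma), with 475, 382 and 460 normalised counts in IGF2BP2 KD libraries, against 515, 600 and 588 in control. That call was lost without control replicate 2, without control replicate 3 or without IGF2BP2 KD replicate 2. It was the only gene of the 6 called in that comparison, where 16.3% of all tested genes changed. In double KD 2 of the 6 rose and 3 fell against control, where 34.2% of all tested genes changed. MAT2B fell by 1.70, to 602, 419 and 624 normalised counts in double KD libraries, against 1753, 1713 and 1813 in control. AOX1 rose by 1.23 and AHCYL2, an AHCY-like protein, by 0.58, while AHCYL1 fell by 0.23 (adjusted p 1.4e-08, 3e-08, 4.8e-06 and 0.0055 in that order of the 4 genes, limma). Against SIRT1 KD 3 of the 6 rose and 1 fell in double KD, where 22.6% of all tested genes changed. Against IGF2BP2 KD 3 rose and 2 fell, where 31.6% of all tested genes changed. AOX1 was higher in double KD than in IGF2BP2 KD by 1.60 on the log2 scale (adjusted p = 2.9e-09, limma).

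**Figure D5:**
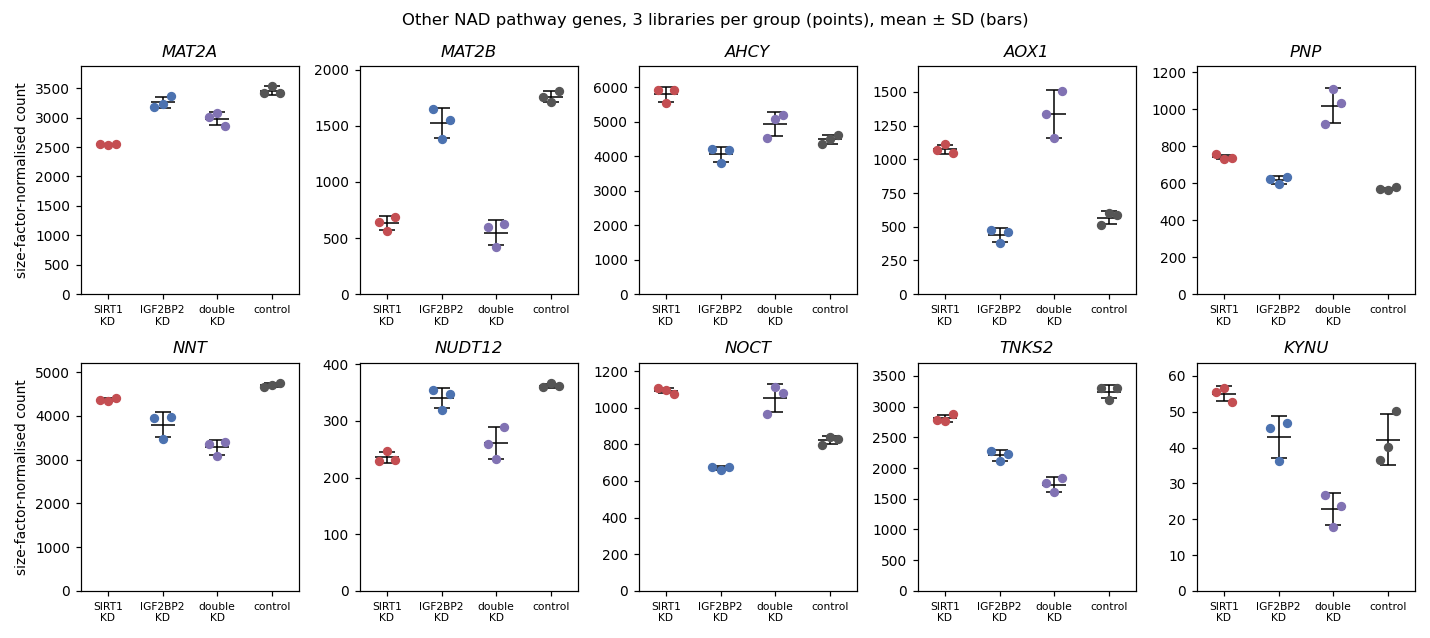
Size-factor-normalised counts (y axis, from 0, with a scale for each gene) of 10 other NAD pathway genes in the 12 libraries, by group (x axis). Points are libraries, and bars give the mean and SD of 3. MAT2B lies at 419 to 684 in the libraries with the SIRT1 hairpin and at 1380 to 1813 in the others, and AOX1 and PNP are highest in double KD.

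Of the 7 tested genes for nicotinamide riboside and other precursors, 1 rose and 1 fell in SIRT1 KD, IGF2BP2 KD and double KD alike, each against control. The shares of all tested genes that changed were 28.6%, 16.3% and 34.2% in that order. PNP, a phosphorylase that can split nicotinamide riboside, had 756, 732 and 736 normalised counts in SIRT1 KD and 919, 1108 and 1033 in double KD libraries, against 567, 562 and 577 in control. It rose by 0.38 in SIRT1 KD and by 0.84 in double KD (adjusted p 0.00080 and 1.1e-07, limma). SLC12A8, which has been described in mouse as a carrier of nicotinamide mononucleotide, fell by 0.28, 0.31 and 0.29 in SIRT1 KD, IGF2BP2 KD and double KD (adjusted p 0.037, 0.036 and 0.027, limma), and each of these calls was lost under 5 to 7 of 20 other settings. NT5C2, a cytosolic nucleotidase, rose by 0.26 in IGF2BP2 KD (adjusted p = 0.049, limma), a call lost under 9 of 20.

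Of the 8 genes of tryptophan breakdown through kynurenine, the route that feeds QPRT, 2 were tested, AFMID and KYNU. The first enzymes, IDO1, IDO2 and TDO2, had 0 to 6.03 normalised counts in every library. KYNU, which cleaves kynurenines, had 26.7, 17.8 and 23.7 normalised counts in double KD libraries, against 36.4, 40.2 and 50.1 in control, and fell by 0.87 on the log2 scale (adjusted p = 0.0019, limma). SIRT1 KD libraries had 55.6, 56.6 and 52.6, and against these the double KD level fell by 1.25 (adjusted p = 0.00014, limma).

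All 14 other members of the PARP family were tested. In SIRT1 KD 2 rose and 4 fell, in IGF2BP2 KD 1 fell, and in double KD 1 rose and 4 fell, each against control. Over all tested genes the shares changed were 28.6%, 16.3% and 34.2%. The SIRT1 KD count stood above its share, the IGF2BP2 KD count below it and the double KD count near it. Of the genes called in SIRT1 KD, PARP14 alone kept its call under all 20 other settings. The tankyrase TNKS2 had 2782, 2773 and 2880 normalised counts in SIRT1 KD, 2275, 2113 and 2229 in IGF2BP2 KD and 1750, 1604 and 1837 in double KD libraries, against 3307, 3116 and 3312 in control. None of the 4 groups overlapped another. Its log2 fold change was -0.21 in SIRT1 KD, -0.56 in IGF2BP2 KD and -0.91 in double KD (adjusted p 0.022, 9.3e-06 and 5.1e-09, limma), and the first of these calls was lost under 5 of 20 other settings. PARP8 fell by 0.37 in SIRT1 KD and by 0.79 in double KD, and PARP12 rose by 0.29 and 0.59 in the same groups. The SIRT1 KD calls were lost under 5 of 20 other settings for PARP8 and 3 for PARP12. PARP14 fell by 0.25 in SIRT1 KD and PARP2, the nearest relative of PARP1, by 0.38 in double KD (adjusted p 0.0034 and 0.0045, limma). Of 5 tested genes that remove ADP-ribose, MACROD1 alone changed against control, by 0.32 in SIRT1 KD, a call lost under 4 of 20 other settings, and by 0.39 in double KD.

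Of 8 other NAD consumers tested, 1 rose and 1 fell in SIRT1 KD against control. In IGF2BP2 KD 1 rose, and in double KD 2 rose and 1 fell. The shares of all tested genes that changed were 28.6%, 16.3% and 34.2% in that order. The gene that fell was SIRT1, the target of the hairpin. SIRT2 rose in all 3 knockdowns. It had 1077, 1022 and 1042 normalised counts in SIRT1 KD, 838, 919 and 862 in IGF2BP2 KD and 1046, 1079 and 1121 in double KD libraries, against 724, 698 and 739 in control. The log2 fold changes were 0.54, 0.28 and 0.59 (adjusted p 7e-06, 0.0076 and 1.8e-06, limma). SIRT5 rose by 0.35 in double KD (adjusted p = 0.0013, limma). CD38, a major NAD hydrolase of immune cells, had at most 9.04 normalised counts.

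Of 7 tested genes for NADP and for repair of damaged cofactors, 1 rose and 1 fell in SIRT1 KD against control. In IGF2BP2 KD 3 fell, and in double KD 1 rose and 2 fell. The shares of all tested genes that changed were 28.6% in SIRT1 KD, 16.3% in IGF2BP2 KD and 34.2% in double KD. NNT, the mitochondrial transhydrogenase, fell by 0.31 in IGF2BP2 KD and by 0.52 in double KD (adjusted p 0.0025 and 5.2e-06, limma). NOCT, an NADP phosphatase, had 1108, 1094 and 1077 normalised counts in SIRT1 KD and 678, 660 and 674 in IGF2BP2 KD libraries, against 799, 838 and 831 in control. It rose by 0.41 in SIRT1 KD and fell by 0.29 in IGF2BP2 KD (adjusted p 0.00019 and 0.0063, limma). NUDT12, which hydrolyses NADH, fell by 0.62 in SIRT1 KD and by 0.48 in double KD (adjusted p 6.1e-05 and 0.00056, limma).

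The overlapping 7-mers CTCAGAT and TCAGATA were searched in the 3′ UTRs of the principal transcripts. An earlier analysis of these data had chosen them on SIRT1 KD against control, so counts in that comparison carry no independent weight. Double KD cells carried the SIRT1 hairpin too, so counts in double KD against IGF2BP2 KD are not independent of that choice either. The joined letters also lie in the coding sequence of SIRT1. The sites below are those of the NAD genes that hold the letters, apart from TNKS, which is named only. Each is given 5′ to 3′ on the gene's strand in GRCh38, from GENCODE 29 transcripts, with the matched letters in capitals.
SIRT1, coding sequence, exon 8 of 9, chr10:67912487-67912510, plus strand: tgaagtgcCTCAGATAttaattaa
MAT2B, chr5:163518793-163518816, plus strand: tgcctgagCTCAGATcaaaatgtt
MAT2A, chr2:85544908-85544931, plus strand: gccatcacCTCAGATggcagcttt
NUDT12, first site, chr5:103550656-103550679, minus strand: aatattgcCTCAGATtatgttaaa
NUDT12, second site, chr5:103549364-103549387, minus strand: agataactgTCAGATAaaacttta
PARP8, chr5:50842450-50842473, plus strand: ctaaatctaTCAGATActttgcaa
TNKS2, chr10:91865023-91865046, plus strand: gcagcatttTCAGATAgctttttg
NNT, chr5:43705555-43705578, plus strand: gatgaataCTCAGATtatttgtct
ADPRH, chr3:119589077-119589100, plus strand: agacccaaCTCAGATAgatagagc
SARM1, chr17:28398445-28398468, plus strand: aaacacagCTCAGATcaccaggtc
NMNAT1, chr1:9984824-9984847, plus strand: gcaggccttTCAGATAagagaagt
Among the 9 tested enzymes NMNAT1 alone holds either 7-mer, and it did not pass the test in any comparison. NAMPT, NNMT and PARP1 hold neither. Over the 9 enzymes and the 49 other tested NAD genes, 10 of 58 hold one, against 17.9% of 13023 tested protein-coding genes. Leaving out SIRT1 itself, 5 of the 10 holders (MAT2A, MAT2B, NUDT12, PARP8 and TNKS2) and 6 of the 47 others fell in SIRT1 KD. Over all searched genes 39.9% of holders and 14.5% of the rest fell there. In double KD against IGF2BP2 KD, 5 of the 10 (MAT2B, NUDT12, PARP8, TNKS2 and NNT) and 7 of the 47 fell, against 35.9% of all holders and 13.9% of the rest. The NAD genes stood near the shares of all genes.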

How the data were processed

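The submitters' processing notes name STAR, CASAVA and DESeq2 with no versions, and the build GRCh38.p13. The annotation, counter and strand setting were not found in the sources used here. The table used is a signal the authors deposited, gene counts that were scaled by library size factors. Each of the 12 columns has a step of which 100% of its values are whole multiples (tolerance 0.001), so reads were recovered. A deposited table of log2 ratios, made by the authors and fully named, served to check the short column codes of the first: over 10670 genes each column matched its own library with an SD of at most 0.0017, and the next at 0.10 or more. The raw count table lacks column names, so 12 columns of it were left aside.

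limma 3.58.1 (trend, robust; R 4.3.3) was fitted to log2(normalised count + 1) as 4 group means over all 12 libraries, for the 17576 genes that passed edgeR's filterByExpr (minimum count 10). Fold changes are on that log2 scale, which understates changes of low genes. Adjusted p-values are Benjamini-Hochberg over all genes tested, called under 0.05. edgeR 4.0.16 and DESeq2 1.42.0 were run on the recovered reads as alternatives, among 20 in all (19 for the interaction). The fit was checked on simulated counts. Symbols came from a gene name table by Ensembl ID (60463 matched), and lengths, 3′ UTRs and coordinates from GENCODE 29. Same-numbered replicates were not taken as pairs.

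The 10 enzymes and the other lists were chosen with earlier results of these data known. Of the other lists, up to 4 genes per list and comparison were eligible to be named, those with the smallest adjusted p among genes called; abundance examples such as IDO1 and CD38 fall outside that rule. A marker and a gene alike in pattern to NNMT are not reported here.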

Additional observations from a re-analysis of the deposited data

Results flagged for a closer look

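Of 49 tested NAD pathway genes outside the 10 enzymes, KYNU, AOX1 and MAT2A alone passed the test of the interaction (limma, adjusted over all genes). That is, the change of double KD from SIRT1 KD differed from the change of IGF2BP2 KD from control. Of the 49, 2 were above and 1 was below 0. Over all tested genes 2.86% passed, 1.7% above and 1.16% below 0. For these genes too, non-additivity cannot be told apart from the lower SIRT1 level in double KD than in SIRT1 KD libraries. For KYNU the interaction was -1.28 on the log2 scale (adjusted p = 0.019). KYNU had 26.7, 17.8 and 23.7 normalised counts in double KD, against 55.6, 56.6 and 52.6 in SIRT1 KD libraries, and 45.5, 36.2 and 47.0 in IGF2BP2 KD, against 36.4, 40.2 and 50.1 in control. Its adjusted p was above 0.05 under 6 of 19 other settings, at most 0.067.

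For AOX1 the interaction was 0.68 (adjusted p = 0.016). AOX1 averaged 1335 ± 176 normalised counts in double KD, against 1076 ± 32.5 in SIRT1 KD, and 439 ± 49.9 in IGF2BP2 KD, against 568 ± 45.8 in control (SD, n = 3 each). The adjusted p was above 0.05 under 4 of 19 other settings, at most 0.068, and was 5.2e-06 without double KD replicate 2.

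For MAT2A the interaction was 0.31 (adjusted p = 0.047), and the adjusted p was above 0.05 under 11 of 19 other settings. MAT2A averaged 2982 ± 111 normalised counts in double KD, against 2549 ± 7.23 in SIRT1 KD, and 3260 ± 91.8 in IGF2BP2 KD, against 3460 ± 70.3 in control (SD, n = 3 each).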

How the results depend on the processing

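Over 54 values of the 9 tested enzymes, there were 1071 values under other settings. Of these, 1039 kept their side of the threshold, with 19 lost calls, 13 gained calls and 0 reversals of a called value. Changes of sign where neither value was called were not counted as reversals. In every setting 13 of 18 calls held. Fitting only the 2 groups compared moved the genes called to 7794 from 5030 for SIRT1 KD and to 5116 from 2857 for IGF2BP2 KD against control, and to 2214 from 3980 and 3641 from 5550 for double KD against SIRT1 KD and IGF2BP2 KD. It raised the enzymes called in IGF2BP2 KD to 4 from 2. DESeq2 called 919 genes for the interaction, against 503. Leaving out 1 library at a time gave 3 to 5 enzymes and 3915 to 7001 genes called for SIRT1 KD, 1 to 4 enzymes and 1862 to 5037 genes for IGF2BP2 KD (4 and 5037 without double KD replicate 2), 2 to 4 enzymes for double KD against control, and 0 to 1 enzymes and 113 to 1771 genes for the interaction (1 and 1771 without double KD replicate 2). The cause was not tested.

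No pairing of libraries by replicate number was seen: 0 of 18 same-numbered pairs had deviations correlated above 0.1 (-0.19 to 0.0996). Of the 36 differently numbered pairs, 3 did (-0.16 to 0.23). With the replicate block, 5098 genes were called for SIRT1 KD, 2930 for IGF2BP2 KD, 6083, 4072 and 5655 for double KD against control, SIRT1 KD and IGF2BP2 KD, and 457 for the interaction. The block called 2 further enzymes, NAPRT in double KD against control (adjusted p = 0.025) and NAMPT in double KD against IGF2BP2 KD (adjusted p = 0.034, limma).

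At these depths QPRT was too low to be tested, and the interval of NMNAT3 was the widest of the 9 enzymes.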
